A study of Triticum aestivum with 72 samples.

Results

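In developing wheat seeds, 159 of 61179 probe sets (0.26%) had values that fell into a low and a high class of arrays with an empty stretch between them. They were chosen from their own values. The 72 log2 intensities of each probe set were sorted, and it was kept if the widest gap between neighbouring values, with at least 12 arrays on each side, was 0.5 log2 units or more. Of the 170 probe sets with such a gap, 11 were left out because their absolute Pearson correlation with a probe set of the small heat shock protein gene hsp16.9A was 0.7 or more. That reference probe set is itself among the 11. The remaining 159 are called 2-level probe sets here, and the arrays above and below the gap are their high and low sides. The gap, the sides and their levels chose the probe sets and are given as a description, with no test. The lines from which the arrays came were not used in the choice.

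The arrays measured polyadenylated RNA from seeds of bread wheat taken 5 days after anthesis from plants grown in the field. The 36 lines belong to a mapping population bred from RL4452 × AC Domain. Every line has 2 arrays, labelled as separate biological replicates. The replicates are numbered 1 and 3 in 35 lines and 2 and 3 in line H9. All lines share this tissue, age and site, no treatment is labelled, and no array of a parent is in the data used here. Each tube held many whole seeds, so fewer cells of a type and less RNA per cell cannot be told apart. Values are on the log2 scale, on which array medians lay between 5.31 and 5.44. Markers of seed tissue were checked by the mean level of each probe set over the arrays. The 8 probe sets of green pericarp genes ranged from 3.67 to 12.53 with a median of 10.28, so at least 1 lay far below the array medians. The 3 of starch-filling endosperm ranged from 9.03 to 12.70 with a median of 11.19. The 11 of storage proteins of later endosperm ranged from 3.17 to 6.67 (median 3.84), the 10 of the late embryo from 3.25 to 6.17 (median 4.18) and the 4 of an anther gene from 3.55 to 5.73 (median 4.09). In these last lists the median lay below the array medians and the highest probe set above them.

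In a population bred from a pair of parents, a line that has become fixed at a locus carries 1 of the parental alleles there. A transcript whose level depends mainly on 1 such locus would then show classes of lines, and transcripts controlled by neighbouring loci would show similar classes. Bread wheat carries 3 subgenomes with near-identical gene copies. An Affymetrix probe set summarises several short probes, so a different amount of transcript and a different sequence under the probes both change its value, and they cannot be told apart from these values. The first number in a probe set name marks a cluster of expressed sequences and the number after it a sub-cluster. The ending _x_at marks probes that also match other sequences, _s_at marks probes shared by several transcripts, and _a_at marks probes shared by transcripts of 1 gene.

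The 159 probe sets came from 140 cluster numbers. The plain ending _at was carried by 114 of them, _x_at by 21, _a_at by 14 and _s_at by 10. The ending _x_at made up 13.2% of them and 11.1% of all probe sets, and _s_at 6.29% and 4.31%. The supplied annotation gave a gene symbol to 1 of the 159, LOC780602, and to 1273 probe sets on the array. The others are unnamed here and appear by their probe set name. No 2-level probe set belonged to any of 8 lists of genes for starch and fructan, photosynthesis, storage proteins, heat shock, defence and antioxidants, serpins and inhibitors, translation, or tubulins and histones. Those lists held between 2 and 36 probe sets with a symbol, so they covered little of the array. Only probe sets with a symbol could be counted, and all but 1 of the 159 have none. The absence from the lists therefore says little about the functions of the 159. Of the 2 heat shock probe sets, 1 had a gap of 0.85 and was removed by the limit on r, so the rule itself decided that list.

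The gap ranged from 0.50 to 4.13 log2 units with a median of 0.87, beside a median of 0.04 for the widest gap of all probe sets. It was at least 1 in 67 probe sets, at least 2 in 22 and at least 3 in 7, and it was larger than the SD of both sides in 107. The medians of the 2 sides differed by 1.55 to 7.49 log2 units, with a median of 3.61. These differences correspond to 2.92-fold, 180-fold and 12.2-fold on the linear scale. The low side was usually the tighter, with a median SD of 0.38 against 0.67 for the high side, and it was the wider in 37 probe sets. In 84 probe sets the median of the low side lay below every array's own median, and in 67 both sides lay above it. More arrays were high than low in 120 probe sets, fewer in 28 and equally many in 11, with 12 to 60 high arrays and a median of 43. Each array was high for between 52 probe sets (C10 replicate 3) and 129 (D15 replicate 1), with a median of 89.

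**Figure D1:**
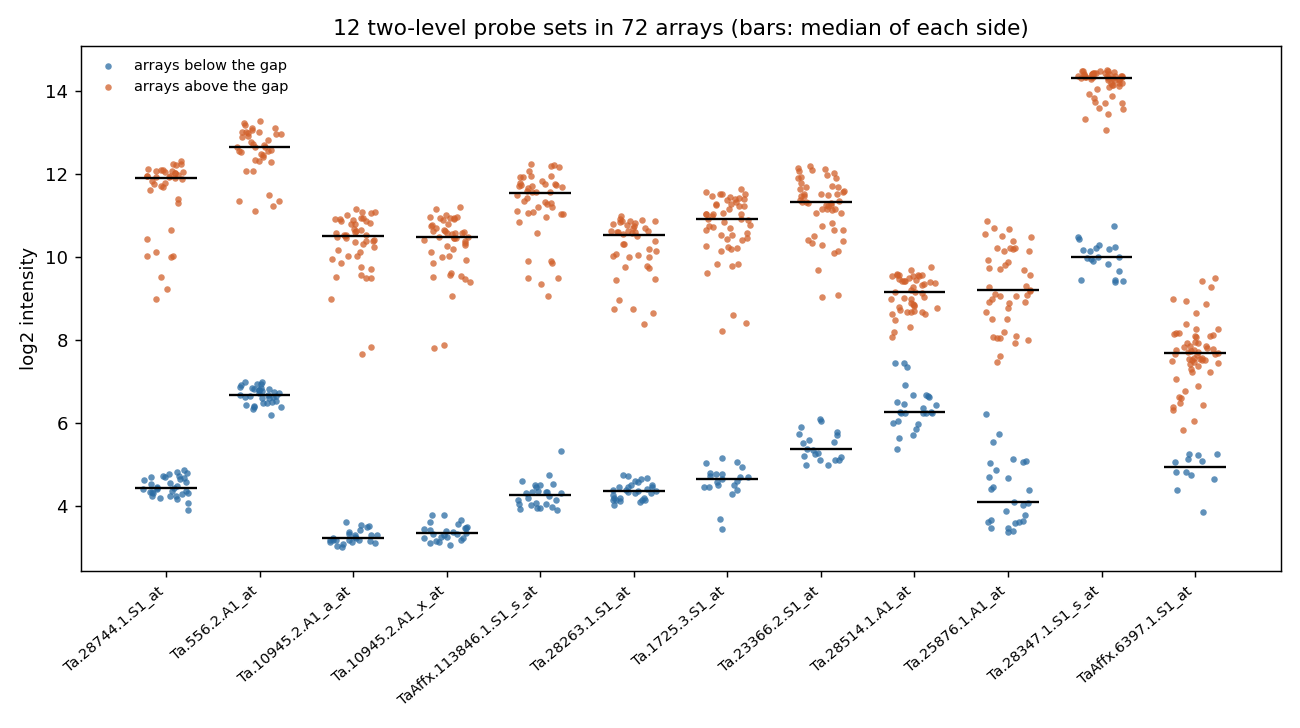
Log2 intensity of 12 two-level probe sets in the 72 arrays, with 1 point per array, blue below the gap and orange above it, and a bar at the median of each side. The 8 probe sets with the widest gaps stand at the left with gaps from 2.96 to 4.13, followed by the LOC780602 probe set and 3 probe sets with weaker line tests, and in most of them the high points spread more than the low points.

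Before the lines were compared, the 2 arrays of each line were set against each other over 245 other probe sets, those whose gap was at least 0.3 and below 0.5. In 24 lines, called matched here, both arrays lay on the same side in 70.2% to 93.1% of the 245. In the other 12 lines the share was 47.3% to 66.9%. The boundary of 70% was set after these values were seen, and B33 lies next to it at 70.2%. The 12 lines were G32, H5, DH91, F36, A91, E5, D15, A40, C25, F38a, J15 and B11. Over the 159 probe sets the matched lines had both arrays on the same side in 74.8% to 100% of cases (median 89.9%), and the 12 unmatched lines in 44.7% to 67.9% (median 57.9%). For the 2520 pairs of arrays from different lines the median was 54.1%, so the arrays of an unmatched line were about as far apart as arrays of different lines. Probe sets near the same locus may be in both sets, so the 245 are not fully separate from the 159. The main counts of the line test and of agreeing lines are therefore given below for all 36 lines and for the 24. The intraclass correlations, the fits with hybridisation day and many single p values are given for all 36 lines only. They include the 12 unmatched lines.

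Some arrays shared more sides with an array of another line than with their own partner. F82 replicate 3 and B11 replicate 3 lay on the same side in 158 of the 159 probe sets, while the 2 arrays of B11 did so in 79. G32 replicate 1 and H5 replicate 3 agreed in 157, beside 92 within G32 and 71 within H5. H5 replicate 1 and DH91 replicate 3 agreed in 150. F38a replicate 3 lay on the side of F38b replicate 3 in 157 and of F38b replicate 1 in 155, beside 92 for its own partner. In all, 10 pairs of arrays from different lines agreed in over 85% of the 159 probe sets. Over the 245 other probe sets these 10 pairs agreed in 183 to 233. The labels are used here as deposited, and no array was moved to another line.

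The matched lines also differed among themselves. The 2 arrays of A81 lay on the same side in all 159 probe sets. A35 and A10 each had 1 probe set that split their arrays, DH95 had 2 and F29 had 4. At the other end, F44 had 40, B33 had 35, A77 had 33, H8 had 32 and C10 had 31. Over the 159 probe sets, 43 of 72 arrays had their own partner as the nearest array. Over the 6102 most variable probe sets outside the 159, correlated across all of them, this was so for 12 of 72 arrays. The 2 counts use different measures, shared sides and correlation, so they are not a like comparison. By shared sides over the 245 other probe sets, most arrays also had their own partner nearest, among them both arrays of A81 and A10.

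**Figure D2:**
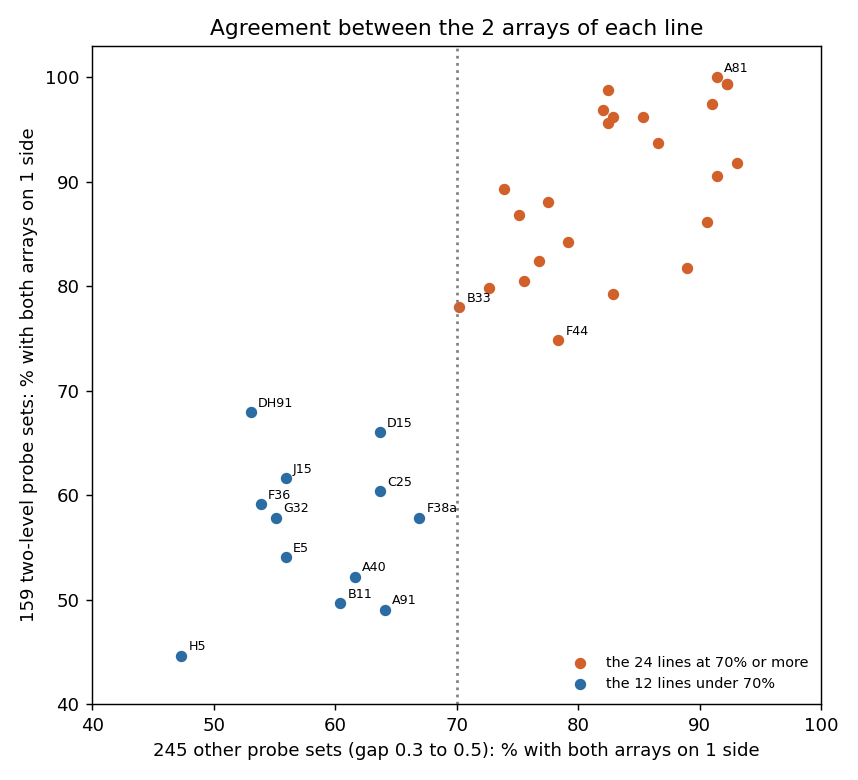
Share of probe sets with both arrays of a line on the same side of the gap, for the 245 other probe sets (horizontal axis, %) and the 159 two-level probe sets (vertical axis, %), with 1 point per line and a dotted line at 70%. The 12 unmatched lines (blue) lie at 44.7% to 67.9% on the vertical axis and the 24 matched lines (orange) at 74.8% to 100%.

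A larger share of the 2-level probe sets than of all probe sets differed between lines. In limma's moderated F-test over the 36 lines, with Benjamini-Hochberg adjustment over all 61179 probe sets, 139 of the 159 passed an adjusted p of 0.05. The background was 2.54% of all probe sets (1553 of 61179). The share among the 2-level probe sets was 87.4%, and they made up 8.95% of all probe sets that passed. The rule picks probe sets whose values lie far apart, which can by itself raise the share that passes. No background of equal spread was fitted. The 245 other probe sets, with gaps of at least 0.3 and below 0.5, are closer in kind than all probe sets. Both arrays of a line lay on the same side in 47.3% to 93.1% of the 245, and in 44.7% to 100% of the 159. These ranges largely overlap, and the line test was not summarised for the 245. Following the lines is therefore not shown to be particular to the 159. With the 24 matched lines alone, 149 of the 159 passed against a background of 3.99%, and the 139 were all among them. The other 10 passed in neither fit. The 24 were selected for agreement between their arrays, which by itself raises the number that pass. With hybridisation day as a block, 122 passed against a background of 2.65%. Probe sets with a wide gap passed more often, with 65 of 67 at a gap of 1 or more and 74 of 92 below that. The median gap was 0.92 in the 139 and 0.60 in the 20 that did not pass. Many of the 159 split the arrays alike, with 99 in 30 groups described below, so the 139 are not separate results.

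The intraclass correlation, the share of variance that lies between lines, had a median of 0.594 in the 2-level probe sets and 0.0641 over all probe sets. It was above 0.5 in 125 of the 159 and in 1055 of all probe sets. This background was not matched for spread either. Its range among the 159 was −0.151 to 0.882. Both arrays lay on the same side in a median of 28 of 36 lines (22 to 33), beside 23 at the widest gap of all probe sets. That background includes many uneven splits, in which agreement is easier. Where both sides held at least 20 arrays, the medians were 28 lines for 143 of the 2-level probe sets and 20 lines for 25117 probe sets in all. In the 24 matched lines the median was 22 (14 to 24) for the 159, against 16 for all probe sets. All 24 matched lines agreed in 18 of the 159, and at least 23 did in 60.

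**Figure D3:**
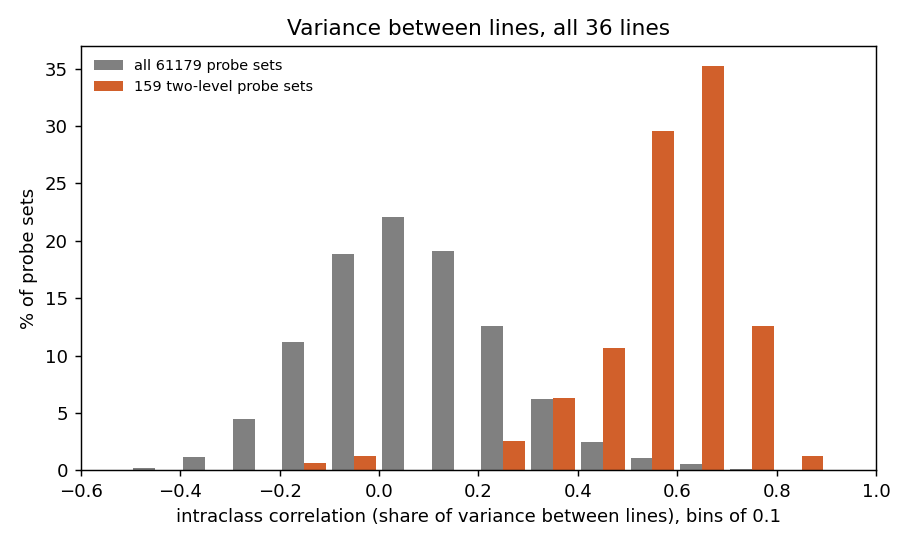
Distribution of the intraclass correlation in bins of 0.1 for the 159 two-level probe sets (orange) and all 61179 probe sets (grey), each as % of its own set, over all 36 lines. The 2-level probe sets have a median of 0.594 and all probe sets a median of 0.0641.

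Ta.28744.1.S1_at had the widest gap, 4.13 log2 units. Its 34 low arrays ranged from 3.90 to 4.87 with a median of 4.43, and its 38 high arrays from 9.00 to 12.33 with a median of 11.92. The low values thus lay within 1 log2 unit of each other, while the high values spread over more than 3. Both arrays were high in 14 lines and low in 12, and they split in 10 lines. Of those 10, 4 were matched lines (B33, F44, H8 and H9). The line test gave an adjusted p of 0.00813 (limma), 1.99e-06 in the 24 matched lines, and 0.0706 with hybridisation day as a block, which does not pass.

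Ta.556.2.A1_at had a gap of 4.12 and the same numbers of low and high arrays, but not the same arrays. Its 34 low arrays ranged from 6.19 to 6.99 (median 6.67) and its 38 high arrays from 11.11 to 13.27 (median 12.66). Both sides were thus above the array medians. Both arrays agreed in 26 lines and in 21 of the matched 24, with an adjusted p of 0.00951 in limma's line test and 1.28e-07 in the 24 lines.

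Ta.10945.2.A1_a_at and Ta.10945.2.A1_x_at, which read the same sub-cluster, had gaps of 4.07 and 4.01 and put all 72 arrays on the same sides. The 25 low arrays of Ta.10945.2.A1_a_at ranged from 3.00 to 3.60 (median 3.23) and its 47 high arrays from 7.68 to 11.16 (median 10.52). Its arrays were both high in 21 lines, both low in 10 and split in 5, of which H23 and H8 are matched lines. The line test gave an adjusted p of 1.84e-05 (limma).

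TaAffx.113846.1.S1_s_at had a gap of 3.74, with 26 arrays at 3.90 to 5.32 and 46 at 9.06 to 12.24. Ta.28263.1.S1_at had a gap of 3.65, with 30 arrays at 4.02 to 4.74 and 42 at 8.39 to 10.99. Their adjusted p values in limma's line test were 0.00271 and 6.76e-05. The low values of Ta.28263.1.S1_at all lay below the array medians, those of TaAffx.113846.1.S1_s_at nearly all, and the high values of both lay above them. Ta.1725.3.S1_at had a gap of 3.06 (21 low and 51 high arrays), and TaAffx.105083.1.S1_at one of 2.74 (24 low and 48 high arrays). Their adjusted p values were 0.00115 and 0.00495 (limma). The remaining probe sets among the 10 widest gaps, Ta.23366.2.S1_at (2.96) and TaAffx.91902.1.A1_at (2.88), split the arrays identically and are described with their group.

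The high side was not equally compact in all arrays. In the 67 probe sets with a gap of at least 1, a high value more than 1 log2 unit below the median of its side was counted as intermediate, a limit set after the values were seen. Of 2989 high values, 400 (13.4%) were intermediate. The median was 2 per array, and 19 arrays had 0. E5 replicate 3 had 27 among its 54 high values, DH91 replicate 3 had 25 of 55, B33 replicate 3 had 24 of 61 and F44 replicate 3 had 21 of 59. E5 replicate 1 had 19 of 45 and D15 replicate 1 had 18 of 65. These 6 arrays held 33.5% of all intermediate values, and 4 of them belong to unmatched lines. DH91 replicate 3, B33 replicate 3, F44 replicate 3 and D15 replicate 1 were also high for many probe sets, at 120 to 129 of the 159. For Ta.28744.1.S1_at, 9 of 38 high arrays were intermediate, among them both arrays of E5.

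LOC780602, the 1 named gene, was read by Ta.28514.1.A1_at. Its 26 low arrays ranged from 5.38 to 7.45 (median 6.26) and its 46 high arrays from 8.07 to 9.75 (median 9.16), a difference of 2.90 log2 units across a gap of 0.62. Both arrays were high in 21 lines and low in 11. The arrays of only 4 lines split, namely A40, C22, F36 and G32, and only C22 of these is matched, with values of 6.65 and 8.07, the latter being the lowest on the high side. The line test gave F = 8.65 and an adjusted p of 1.54e-06 (limma).

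The annotation assigns 4 other probe sets to LOC780602, and none of them had 2 levels. Between the same 26 and 46 arrays the medians differed by 0.55 log2 units for Ta.28514.2.S1_at (4.92 and 5.48) and by 0.31 for Ta.28514.2.S1_s_at. The differences were 0.19 for Ta.5937.1.S1_x_at and 0.09 for Ta.5937.2.S1_at, and in all 4 the ranges of the 2 sets of arrays overlapped. None passed limma's line test, with adjusted p values from 0.513 to 0.831. The classes seen by Ta.28514.1.A1_at were thus not seen by the other probe sets given the same symbol. Probe sets of 1 gene can read different stretches of a transcript or different gene copies, and which of them these read was not analysed here.

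Ta.29726.2.A1_at had the smallest p of the 159 in the line test (F = 17.3, adjusted p = 2.54e-10, limma) and the highest intraclass correlation, 0.882. Its 27 low arrays ranged from 3.76 to 5.15 (median 4.27) and its 45 high arrays from 5.89 to 9.66 (median 8.10). The arrays agreed in 33 of 36 lines, the most of any of the 159. This count was shared by Ta.3469.1.A1_at and Ta.14426.1.S1_at. For Ta.3469.1.A1_at, 31 arrays lay at 3.61 to 5.88 and 41 at 6.88 to 9.11, and all 24 matched lines agreed. Ta.14426.1.S1_at was the uneven one, with 17 high arrays at 7.13 to 10.26 and 55 low ones at 3.21 to 6.52. The next smallest p values belonged to Ta.3211.1.S1_at (3.52e-07) and Ta.25770.1.S1_x_at (8.66e-07, both limma).

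Which probe sets split the arrays alike was asked pair by pair. Of 12561 pairs, 200 put at least 65 of 72 arrays on matching sides or at least 65 on opposite sides, beside 40 for the median pair. Of these, 84 pairs split the arrays identically. Groups in which each pair agreed in at least 65 arrays numbered 30. They held 99 of the probe sets, with 60 alone, and 14 groups had 3 or more members. In 29 of the 30 groups, probe sets of different cluster numbers were together. Pairs of the widest-gap members of the 6 largest groups had 37 to 43 of 72 arrays on matching sides or, if more, on opposite sides. This is near the 40 of the median pair, counted in the same way.

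The largest group held 11 probe sets of 8 cluster numbers, led by Ta.23366.2.S1_at. Each pair agreed in 71 or 72 arrays, and 71 arrays lay on the same side for all 11. The lead had 20 low arrays at 4.99 to 6.09 (median 5.36) and 52 high arrays at 9.05 to 12.20 (median 11.34). TaAffx.91902.1.A1_at (gap 2.88) and Ta.23366.2.S1_x_at (gap 2.69) had the next widest gaps. The sides differed by 3.52 to 5.97 log2 units within the group. For the lead, both arrays were high in 22 lines, low in 6 and split in 8, of which C10, F44 and G30 are matched lines. All 11 passed limma's line test in both sets of lines, and the adjusted p of the lead was 0.0014. The call of Ta.1929.1.S1_at was the least firm (adjusted p = 0.0434), as it passed in 25 of 72 limma fits that each left out 1 array, with adjusted p values up to 0.0851.

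The group led by Ta.28263.1.S1_at held 8 probe sets of 6 cluster numbers, with 67 arrays on a common side. Ta.7259.1.S1_at (gap 2.31) and Ta.7259.1.S1_a_at (gap 2.09) belong to it. It agreed in 22 or 23 of the matched lines, with B33 and A77 as the split ones for the lead, and all 8 passed the line test. A group of 7 probe sets from 3 cluster numbers, led by Ta.10329.16.S1_at, split all 72 arrays identically. Ta.10329.16.S1_at ranged from 8.29 to 9.34 in 23 low arrays (median 8.79) and from 11.31 to 13.01 in 49 high arrays (median 12.58), so both sides lay above the array medians. Ta.10329.16.S1_x_at (gap 1.70) and Ta.13844.1.S1_at (gap 1.57) split with it. In this group 23 of the 24 matched lines agreed, and all 7 passed.

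A further 7 probe sets were led by Ta.22681.1.S1_at, with 21 low arrays at 4.62 to 5.80 and 51 high ones at 7.03 to 11.35. Ta.20001.1.A1_at and TaAffx.38460.1.S1_at follow it. This group was the weakest of the 6 in the line test, with 6 of 7 past the threshold in all 36 lines and 7 in the matched 24. The adjusted p values of the 3 named probe sets were 0.0196, 0.0314 and 0.0169 (limma). Ta.20001.1.A1_at passed in 60 of the 72 fits without 1 array. The 5 probe sets led by Ta.24733.1.S1_at were from 5 cluster numbers, and both sides of the lead had 36 arrays. Its low arrays ranged from 3.93 to 6.10 and its high ones from 6.89 to 8.67. Its arrays agreed in 32 lines and in all 24 matched ones, as they did for Ta.25802.1.A1_at in the 24, and the adjusted p values of both were 1.79e-06 and 1.68e-06 (limma). Ta.30583.1.S1_at (gap 0.63) was the third of its widest gaps. The 4 probe sets led by Ta.28744.1.S1_at, among them Ta.3527.1.S1_at (gap 2.06) and Ta.28759.1.A1_at (gap 1.27), split all arrays identically and therefore shared its 10 split lines.

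**Figure D4:**
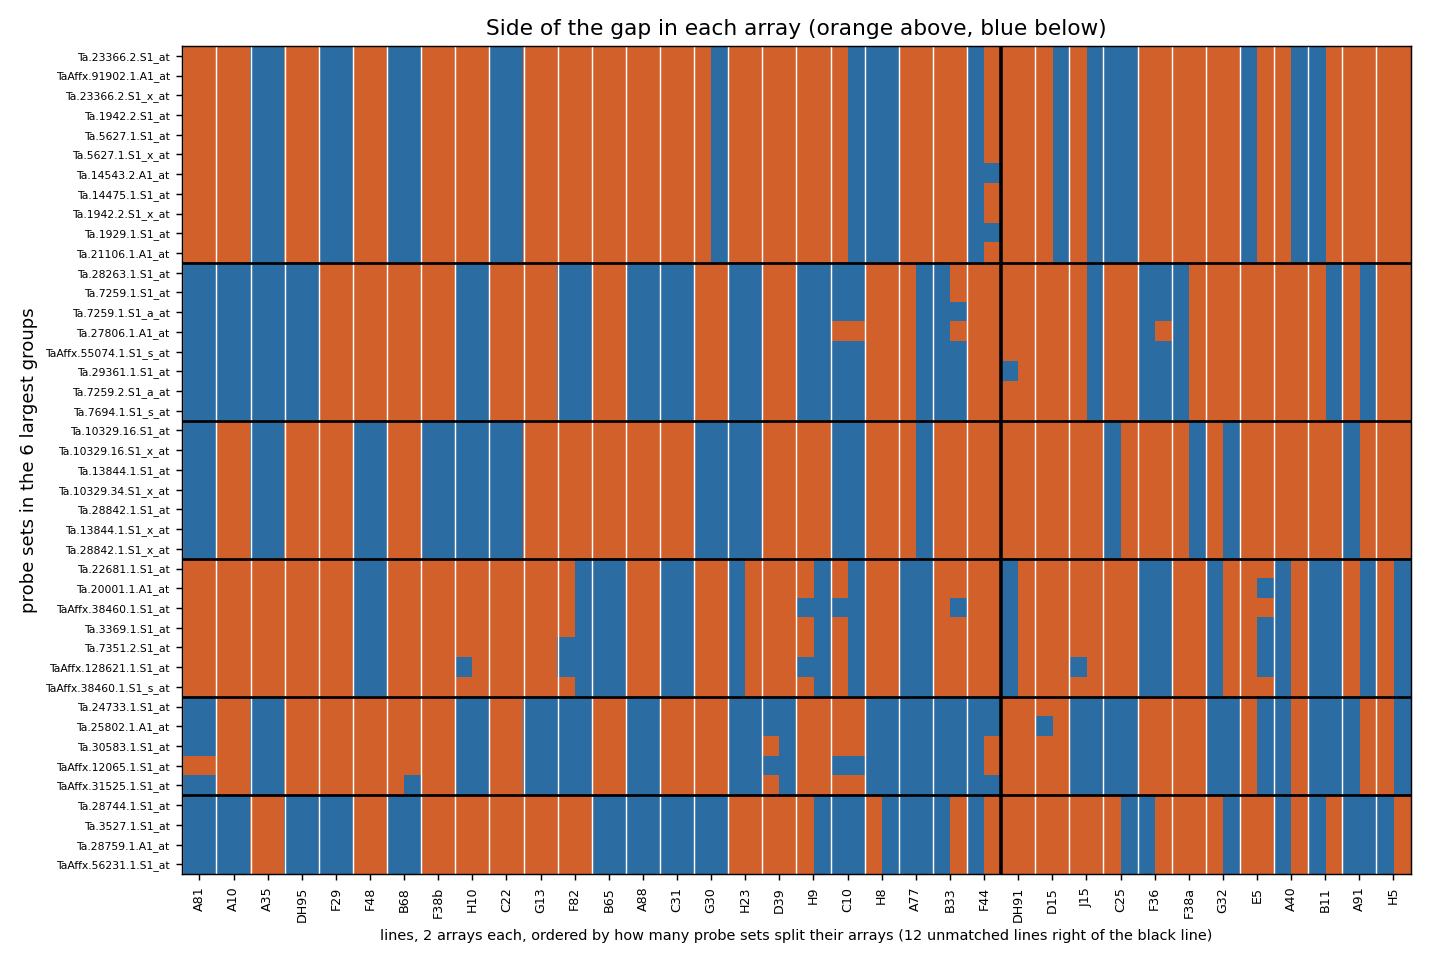
Side of the gap in each of the 72 arrays (columns, 2 per line) for the 42 probe sets of the 6 largest groups (rows, groups parted by black lines), orange above the gap and blue below. Lines are ordered by the number of the 159 probe sets that split their arrays, from A81 with 0 to H5 with 88, and the 12 unmatched lines stand right of the thick line.

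Opposite splits were rarer, with 17 of the 200 pairs. In such a pair, the arrays that are high for 1 probe set are low for the other. None of the 17 pairs shared a cluster number. Ta.26013.1.A1_a_at and TaAffx.12072.1.S1_at were opposite in 69 of 72 arrays. Ta.11179.1.A1_at with Ta.4381.2.S1_a_at, Ta.14246.1.S1_at with Ta.24948.1.S1_at, and Ta.7167.1.A1_at with TaAffx.64288.1.A1_at were opposite in 68. The LOC780602 probe set Ta.28514.1.A1_at and TaAffx.128678.1.S1_s_at were opposite in 67. These pairs were picked for their agreement, and their sides are not tested.

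Other probe sets with the same cluster number shared the levels in some cases and not in others. Of the 159, 74 have at least 1 such probe set that is not 2-level, which makes 249 pairs with 158 different probe sets. Partners that are themselves 2-level are not in these pairs. Counted per 2-level probe set, 34 of the 74 had at least 1 other that differed by 1 log2 unit or more between their low and high arrays, and 30 had only others that differed by less than 0.5. Between the low and high arrays of its 2-level partner, the other probe set moved by −0.67 to 4.94 log2 units (median 0.003). It differed by less than 0.5 in 194 pairs, by 1 or more in the same direction in 39 and by 1 or more in the opposite direction in 0. The cluster number of Ta.10329.16.S1_at alone gave 108 of the pairs, from 3 of the 159 and 36 others, with differences of −0.23 to 0.48. In 27 pairs that share the sub-cluster, the median difference was 1.57, with 18 at 1 or more and 4 below 0.5. In the 114 pairs of different sub-clusters outside that number, the median was 0.12, with 21 at 1 or more and 82 below 0.5. The 2 kinds of pairs overlapped, and their difference was not tested. The limit of 0.5 required of the 159 and not of the others favours such a contrast, so the counts are a description.

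Individual cases show both kinds. Ta.28744.3.S1_a_at differed by −0.04 log2 units between the arrays that Ta.28744.1.S1_at separated by 7.49. Ta.556.1.S1_at differed by −0.28 where Ta.556.2.A1_at differed by 5.99, with medians of 12.23 in the low and 11.95 in the high arrays. Ta.10945.1.S1_at differed by 0.29. For Ta.23366.2.S1_at, 4 others differed by −0.67 (Ta.23366.3.A1_at) to 0.21 (Ta.23366.1.S1_x_at). In contrast Ta.14426.1.S1_x_at, of the same sub-cluster as Ta.14426.1.S1_at, differed by 4.94, and Ta.14543.2.A1_x_at by 3.40 beside Ta.14543.2.A1_at. Ta.4381.1.S1_s_at, of another sub-cluster than Ta.4381.2.S1_a_at, differed by 3.48.

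**Figure D5:**
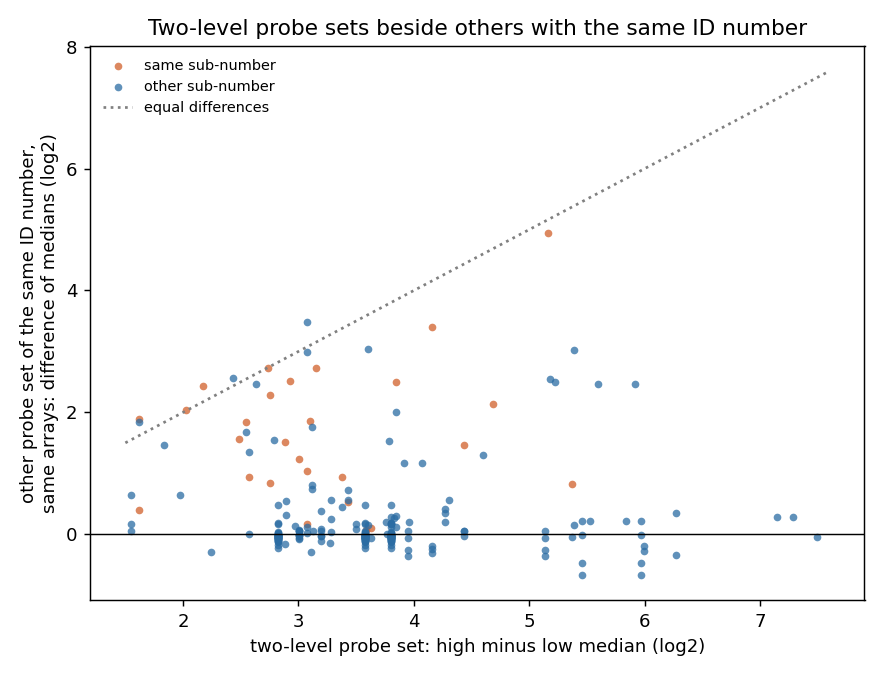
Difference of medians (log2) between the high and low arrays of a 2-level probe set, for that probe set (horizontal axis) and for another probe set of the same cluster number that is not 2-level (vertical axis), with 1 point per pair and 249 pairs. Pairs of the same sub-cluster (orange, median 1.57) have a higher median than pairs of different sub-clusters (blue, median −0.01), 190 of which lie within 0.5 of 0, and the 2 kinds overlap.

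Of the 20 probe sets that did not pass the line test, 3 formed a group that split the arrays alike, with gaps from 0.58 to 1.25. They were singled out after their values were seen. Ta.25876.1.A1_at had a gap of 1.25, the widest among the 20, with 27 low arrays at 3.38 to 6.23 (median 4.11) and 45 high arrays at 7.48 to 10.86 (median 9.20). The arrays split in 13 lines and agreed in 14 of the 24 matched ones. Its adjusted p was 0.191 in all lines and 0.337 in the 24 (limma). Ta.28289.1.S1_a_at (gap 1.01) and Ta.28289.1.S1_x_at (gap 0.58) split the arrays like it, with adjusted p values of 0.121 and 0.157 in all lines and 0.185 and 0.162 in the 24. These levels were thus clear in the arrays but not shown to follow the line labels. For Ta.25876.1.A1_at, 22 arrays of replicate 1 and 23 of replicate 3 were high. Its sides were uneven over hybridisation days. On the day numbered 3, 4 of 6 arrays were low, and on day 4, 6 of 8 were. On days 1, 2, 5 and 6 there was 1 low array each, of 5 to 7, and on day 7 there were 0 of 4. The other days were mixed, with 2 of 7 low on day 8, 3 of 5 on day 9 and 3 of 8 on day 10. On day 11, 4 of 7 arrays were low, and the 1 array of day 12 was low. With day as a block its adjusted p was 0.301 (limma), and the part of the day in its levels was not tested otherwise.

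A second such group, also picked after its values were seen, held TaAffx.6397.1.S1_at, Ta.5071.2.S1_x_at and Ta.9309.2.S1_a_at, with 12, 12 and 14 low arrays. TaAffx.6397.1.S1_at lay at 3.85 to 5.26 in the low and 5.84 to 9.49 in the high arrays. None of the 3 passed, with adjusted p values of 0.334, 0.22 and 0.268 (limma). Here a sign of RNA quality moved with the sides. The log2 ratio of 3′ to 5′ control probe sets, averaged over 7 wheat control genes, had a median of 1.49 in the low arrays of TaAffx.6397.1.S1_at and 0.89 in its high arrays. Over all arrays it ranged from 0.51 to 1.79 with an SD of 0.296. Its part in the result was not tested. The low arrays of TaAffx.6397.1.S1_at came from 5 of the 11 hybridisation days that held at least 4 arrays, and unevenly. On day 9, 4 of 5 arrays were low, and on day 8, 3 of 7 were. There were 2 of 6 on day 3, 2 of 8 on day 4 and 1 of 7 on day 5. The part of the day was not tested.

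The 3 largest p values belonged to probe sets with uneven sides. Ta.30507.1.S1_x_at had 12 high arrays, from 12 different lines, and an adjusted p of 0.884. TaAffx.87644.1.S1_at also had 12 high arrays (0.786), and TaAffx.43752.1.A1_x_at had 20 low arrays (0.735, all limma). Ta.28347.1.S1_s_at, picked after its values were seen, had a gap of 2.31 between 20 arrays at 9.41 to 10.76 and 52 at 13.07 to 14.52. Its adjusted p was 0.0484 in all lines, 0.0033 in the 24 matched lines and 0.226 with hybridisation day as a block (limma), and 18 of the 24 agreed. It passed in 20 of the 72 fits without 1 array.

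Replicate, day and RNA quality were set beside the sides of all 159. Between replicate 3 and replicate 1, with the line as a block in 35 lines, 0 of the 159 passed limma's adjusted threshold and 7 had an unadjusted p under 0.05. The background was 2.6% of all probe sets, with 0.616% higher and 1.98% lower in replicate 3. The number of high arrays in replicate 3 minus replicate 1 ranged from −8 to 7. Arrays were hybridised on 12 days, and the 2 arrays of a line shared a day in 2 lines. Of the 11 days with at least 4 arrays, a median of 11 and at least 5 held both sides of a probe set, and 91 of the 159 had both sides on all 11. The median 3′ to 5′ ratio of the high arrays minus that of the low arrays ranged from −0.61 to 0.19 with a median of −0.04. It was within 0.5 SD of the arrays in 134 probe sets.

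At the limit of the rule, the 4 smallest gaps were those of Ta.5824.2.S1_x_at (0.502), TaAffx.64288.1.A1_at (0.508), Ta.24948.1.S1_at (0.511) and Ta.10217.2.S1_at (0.512). The 4 just outside it were TaAffx.5511.1.A1_at and Ta.24155.2.S1_x_at, both at 0.500 when rounded, and Ta.2892.3.S1_a_at and Ta.11630.1.A1_at at 0.497. The medians of the sides differed by 2.43 to 3.79 log2 units just inside and by 1.92 to 3.18 just outside, so the limit of 0.5 falls in a continuous range. The 11 probe sets left out for their correlation with the hsp16.9A probe set had absolute r from 0.821 to 1, that of the reference with itself. The highest among the 159 was 0.589, so no probe set lay near the limit of 0.7.

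The probe sets outside the 159 most like the leads of the 3 largest groups were found by Pearson's r over the 72 arrays, given as a description. Nearest to Ta.23366.2.S1_at were Ta.14543.2.A1_x_at (0.941), Ta.1763.2.S1_at (0.938) and Ta.1763.2.S1_x_at (0.930). Nearest to Ta.28263.1.S1_at were Ta.7259.3.S1_x_at (0.953), TaAffx.55074.1.S1_x_at (0.952) and TaAffx.37934.1.S1_at (0.940). For Ta.10329.16.S1_at they were Ta.12364.1.S1_at (0.849), Ta.27995.1.S1_x_at (0.822) and Ta.608.2.S1_a_at (0.816). Of these, Ta.14543.2.A1_x_at, Ta.7259.3.S1_x_at and TaAffx.55074.1.S1_x_at share a cluster number with a probe set in the group concerned. The 72 arrays share lines in pairs and hybridisation days.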

How the data were processed

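The deposited value table holds 1 summarised intensity per probe set and array on a linear scale. Per the submitters' processing notes the tool was RMA. Its version, and whether it was run on all arrays at the same time, are not given in the sources used here. Here log2 was taken of the deposited intensity with a pseudocount of 0 and no filter. The 111 control probe sets of 61290 were left out of the tests and served only for the 3′ to 5′ ratio. From each deposited run record, values of other kinds, only the hybridisation day was used. No column of other samples was found. Line effects were fitted with limma 3.58.1 (R 4.3.3) as a separate mean for each line, with Benjamini-Hochberg adjustment at 0.05 over 61179 probe sets. Replicate 3 was compared with replicate 1 in the same way with the line as a block. Sides, groups (complete linkage) and summaries were computed in Python 3.11.15. The counting of sides and the rule were tested on simulated data. Separate replicates per line come from the labels, and p-values measure the spread between them as labelled. The number of arrays limits the precision, and no depth exists.

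The probe sets and the gene lists were chosen with earlier results of these data known. Named probe sets follow a rule. It takes those with a gene symbol, the 10 widest and 4 smallest gaps, the 4 just outside the limit, the 3 smallest and 3 largest line-test p values, the 3 widest gaps in each of the 6 largest groups, the 3 with most agreeing lines, and the 3 others most like the leads of the 3 largest groups. Other names are marked in the text or come from the tables of opposite pairs, same cluster numbers and LOC780602. Alternatives were quantile normalisation, median centring, hybridisation day, the 3′ to 5′ ratio or the replicate as a term, a variance trend, only the brighter probe sets (above the median level), other limits of the rule, subsets of lines, and leaving out each array. The choice of 24 matched lines was added after seeing the data. No gene coordinates or sequences are printed, since none could be matched to these probe sets here.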

Additional observations from a re-analysis of the deposited data

How the results depend on the processing

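Of the 159 probe sets, between 136 and 149 passed limma's line test under 8 alternatives, and 122 did with hybridisation day as a block. Leaving out 1 array gave 135 (without A81 replicate 3) to 144 (without H5 replicate 3), with 133 past the threshold in all 72 such fits. Over all probe sets, leaving out 1 array gave 1220 (without A81 replicate 3) to 3075 (without B65 replicate 3), the 24 matched lines gave 2438 and the 5 lines with mutually nearest arrays 5758, where 1553 passed in the full set. The replicate comparison called 0 of the 159, 1 after quantile normalisation, 2 among the brighter probe sets, and 0 to 1 when 1 line was left out (1 without H5). A gap of 0.4 gave 246 probe sets and one of 0.75 gave 95. Leaving out 1 array gave 156 to 169. The median share of lines with both arrays on the same side was 77.8%, rising to 91.7% in the 24 matched lines and 100% in the 5. These lines were selected for agreement, so a rise follows from their choice. Agreement in 69 of 72 arrays gave 19 groups in place of 30. The 37 named probe sets had 406 alternatives for their gap or their line-test call, and 399 gave the same result. For a gap, same meant a shift below the larger SD of its sides, and no gap moved further. For a call, it meant the same side of the threshold, and 3 calls were lost and 4 gained. Ta.28744.1.S1_at lost its call with hybridisation day as a block (adjusted p = 0.0706), as did TaAffx.113846.1.S1_s_at (0.0571) and TaAffx.38460.1.S1_at (0.135) in the 5 lines. The fits of the 5 lines held fewer arrays, and the cause of the lost calls was not tested. The deviations of replicate 3 from replicate 1 correlated between pairs of lines at −0.663 to 0.625 (median 0.0369). The mean correlation of a line with the others was above 0 in 24 of 35 lines. Whether arrays with the same replicate number deviate together was not tested further. With the replicate block, 138 of the 159 and 1639 of all probe sets passed.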
